A study of Drosophila melanogaster with 24 samples.

Results

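The comparison described here sets the 2 crossed groups of F2 flies against each other, 7 of the 22 *Drosophila melanogaster* libraries analysed, in a series of 24 samples. F2-M18-G25 flies (4 libraries, replicates A to D) hatched from eggs of control flies, which had lived at 25 °C, on food carrying the faeces of cold-treated males, which had lived at 18 °C. F2-M25-G18 flies (3 libraries, replicates A, B and D) hatched from eggs of cold-treated flies on food carrying the faeces of control males. M thus stands for the source of the microbiome and G for the source of the germline. All flies were of 1 isogenic line, w1118_iso/Dp(1;Y)y+_iso;2_iso;3_iso, whose Y chromosome carries a duplication with the yellow gene. Eggs were laid at the temperature of their parents, 25 °C for F2-M18-G25 and 18 °C for F2-M25-G18. The males that left the faeces were kept in the food bottles at their own temperature, 18 °C and 25 °C respectively. Eggs of both groups were washed in hypochlorite before the transfer, and after it both groups lived at 25 °C. Total RNA of 20 pooled whole males, no older than 16 h, went into each library. The members were chosen by library name alone, with the microbiome named first as in the library list of the study, and no measured value took part in the choice. The titles given to these samples hold the 2 numbers in the opposite order, and their characteristics name the opposite sources of microbiome and germline. Under this other reading the names of both groups change places. The libraries compared and every value below stay attached to the same library names (18-25 for the group called F2-M18-G25 here). A further F2 sample titled as one of the crossed groups has no library name, was assigned to no group and was not analysed here.

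The comparison asks how flies differ when they inherit opposite combinations of microbiome and germline from cold-treated and control parents. Because both sources differ at once, and in opposite directions, the part of the microbiome and the part of the germline in any difference below cannot be told apart by it. The temperature at which eggs were laid goes with the germline and that of the food bottles with the microbiome, so neither can be separated from its source. As background, flies sense bacteria through their peptidoglycan, which activates the Toll and IMD pathways and with them genes for secreted antimicrobial peptides. The gut itself secretes proteases, maltases and lipases into its lumen. Newly emerged adults still carry larval fat body cells, which store lipid and the serum proteins made for metamorphosis, and their cuticle, flight muscles and reproductive glands are still maturing. Flight muscle is rich in mitochondria, whose respiratory complexes are built from subunits encoded both in the nucleus and in the mitochondrial genome.

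The deposited values are read counts per gene that the authors normalized with TMM (trimmed mean of M-values), so each is a level comparable between libraries. They are compared as log2(value + 2), and a difference is always F2-M18-G25 minus F2-M25-G18, so that a negative value means a lower level in F2-M18-G25. SE is the standard error of such a difference. A gene was called differentially expressed below a Benjamini-Hochberg adjusted p of 0.05 in limma, over the 10921 of 12024 genes that reached 10 in 3 or more of the 7 libraries. A gene can pass this filter through 1 group alone, where it is high, and the filter then sets part of its difference. Values of a library summed to 3759704 to 3951302 in F2-M18-G25 and to 4218630 to 4302871 in F2-M25-G18, and the 10 highest genes took 11.7% to 12.3% and 14.3% to 15.4% of these sums. In 5 of the 7 libraries low values stood at clear steps of 0.884 to 1.2 units, the worth of 1 read, so that the lowest genes were seen in very few reads, and in replicate A of either group the steps were too blurred to read. The read total that the study lists for replicate C of F2-M18-G25 is far below what its steps of 0.91 imply. The listed totals of the other libraries with clear steps depart from their steps as well, by less. They are below in replicate B of either group and replicate D of F2-M25-G18, and above in replicate D of F2-M18-G25. Why the totals and steps differ was not tested. In the 1521 genes with a mean of 20 to 40, replicate C of F2-M18-G25 scattered about the rest of its group no more than the others did (median absolute log2 deviation 0.224, beside 0.214 to 0.232). Without it 506 genes were called higher and 808 lower. The label of whole males fits the marker genes, since testis genes such as loopin-1 (means 4608 and 3686), a sperm protein, and the Y-linked kl-3 (317 and 303), a sperm dynein, were present in every library, whereas the 8 genes that mark ovary and female fat body summed to only 157 to 210.0 and 167 to 186. None of the 4 of these female genes that were tested and none of the 12 Y-linked genes was called. In whole flies, fewer cells of a type and less RNA per cell cannot be told apart.

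The first principal component, with 52.3% of the variance, separated the groups (F2-M18-G25 from -26.9 to -1.4, F2-M25-G18 from 19.5 to 29.3). Replicate D of F2-M18-G25 stood apart from the rest of its group, at -1.4 on this component and at -22.7 on the second. In the 2623 genes called without it, 0 being the mean of its own group and 1 that of the other, its median position was 0.37, and it lay nearer to F2-M25-G18 in 922 genes (35.2%). The corresponding share was 5.40% to 9.76% for the other F2-M18-G25 libraries and 5.87% to 22.5% for those of F2-M25-G18. Below, the value without replicate D is added for genes named in the text whose log2 difference it moved by more than 1.5 times, on the linear scale.

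**Figure D1:**
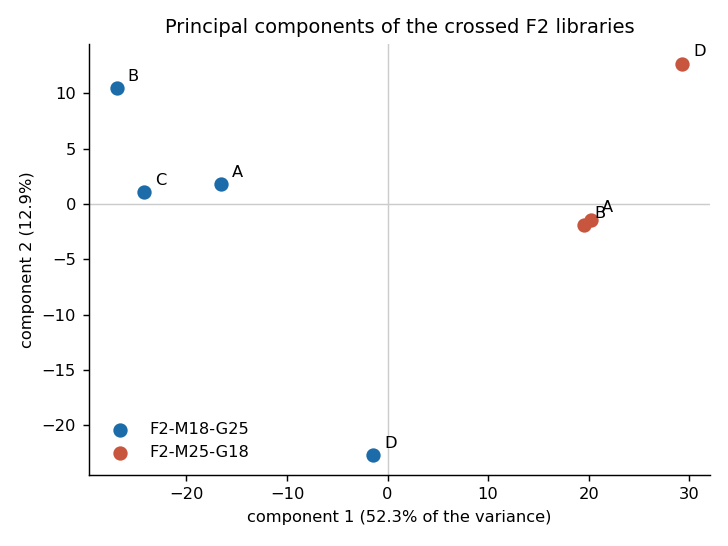
First 2 principal components of log2(value + 2) over the genes tested, 1 point per library labelled by its replicate letter, blue for F2-M18-G25 and red for F2-M25-G18. All F2-M25-G18 libraries lie at 19.5 or above on component 1, and replicate D of F2-M18-G25 lies apart from its group at -1.4.

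The strong differences between the crossed groups were nearly all decreases in F2-M18-G25. Of the genes tested, 2251 genes (20.6%) were called, 971 higher (8.89%) and 1280 lower (11.7%) in F2-M18-G25, and 3845 had an unadjusted p under 0.05. The median over all genes tested was -0.00. These shares and this median are the background for the counts and medians of the gene lists below. In 3360 genes no library of one group lay within the range of the other (30.8%), among them 2064 of the called. The median difference of the genes called higher was 0.40 on the log2 scale, and 8 of them exceeded 2-fold. The genes called lower had a median of -0.57, with 242 beyond 2-fold and 28 beyond 4-fold. Leaving out replicate D of F2-M18-G25 gave 1143 higher and 1480 lower, and leaving out replicate D of F2-M25-G18 gave 392 and 579, the fewest of any library. With the values scaled to equal sums the split turned, with 2348 higher and 820 lower, because all genes together then shifted by 0.129. Relative to that shift, the median of none of the 38 gene lists used here moved by more than 0.02.

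**Figure D2:**
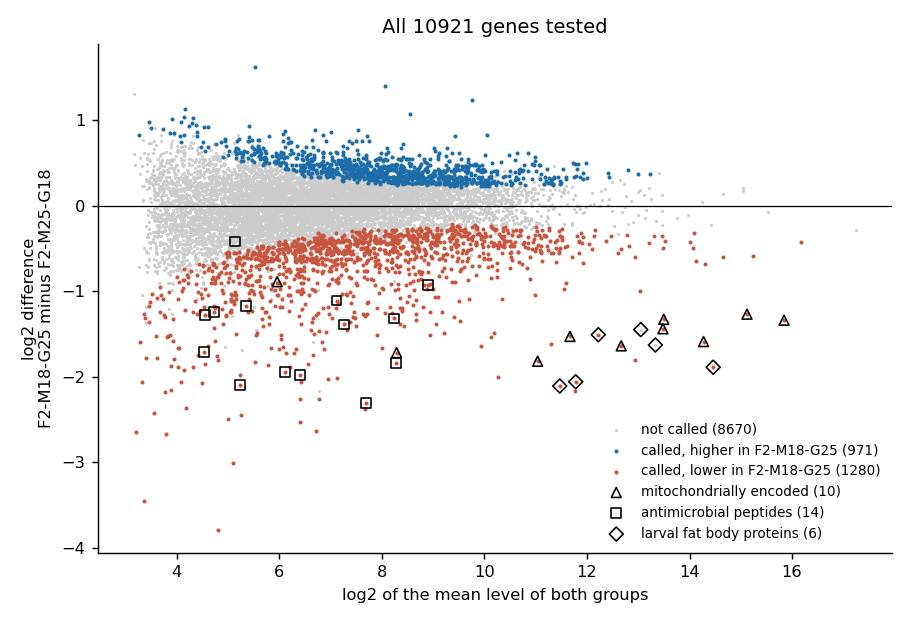
Each point is a gene, its level (log2, mean of both groups) on the x axis and its log2 difference on the y axis, grey where not called, blue where called higher and red where called lower in F2-M18-G25. The mitochondrially encoded genes, antimicrobial peptides and larval fat body proteins (open symbols) all lie below 0.

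Genes of the mitochondrial genome were lower together in F2-M18-G25. Of the 10 tested, 9 were lower in F2-M18-G25, where 11.7% of all genes were, with a median log2 difference of -1.48, and the remaining gene, mt:ND2, differed by -0.89 (adjusted p = 0.0928). In mt:ND5 (FBgn0013684, the mitochondrial genome from 6409 to 8125), a subunit of complex I, the values were 871, 1102, 1333 and 1150.3 in F2-M18-G25 and 3635, 3309.9 and 4931 in F2-M25-G18. All libraries of F2-M25-G18 were thus above all of F2-M18-G25, by 3.54-fold on average (log2 difference -1.82, SE 0.14, adjusted p = 3.54e-05). mt:Cyt-b (FBgn0013678, the mitochondrial genome from 10499 to 11635), of complex III, had 9806, 10933, 13078 and 11673 against 34674, 28254 and 40507, log2 difference -1.59, SE 0.13, adjusted p = 3.54e-05, again without overlap. The highest of these genes, mt:CoI, a subunit of complex IV, had means of 36736 and 94177 and log2 difference -1.34, SE 0.15, adjusted p = 2.17e-04. Replicate D of F2-M18-G25 lay with its own group in these genes, at a median position of 0.03. Together the 13 mitochondrial genes of the table held 2.27% to 2.59% of the summed values in F2-M18-G25 and 4.59% to 6.91% in F2-M25-G18. In the uncrossed groups their share was 2.18% to 3.21% (F2-M18-G18, the cold-treated source of both) and 1.93% to 2.01% (F2-M25-G25, the control source of both, in its replicates A and B), so F2-M25-G18 was the group that stood above the other F2 flies. The count was 9 or 10 of the 10 genes when any library was left out, and 9 with equal sums.

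The nuclear subunits of the same respiratory complexes were lower in F2-M18-G25 as well, by less. Of 65 genes tested, 55 were called lower and 0 higher, with a median of -0.46, and all 65 differences were below 0. The calls covered 27 of 33 subunits of complex I (NADH dehydrogenase), 4 of 4 of complex II (succinate dehydrogenase), 7 of 8 of complex III, 5 of 8 of complex IV (cytochrome c oxidase) and 12 of 12 of ATP synthase. The largest difference was in UQCR-11 (FBgn0260008, chromosome 3L from 25120709 to 25126171), a small subunit of complex III, with 372, 340.2, 376 and 388 in F2-M18-G25 and 795, 779 and 1096 in F2-M25-G18, without overlap and with log2 difference -1.25, SE 0.11, adjusted p = 4.43e-05. ATPsynbeta, the catalytic subunit of ATP synthase, had means of 15984 and 25596 and log2 difference -0.68, SE 0.10, adjusted p = 0.00141. COX5B differed by -0.84 and ND-AGGG by -0.99. As with the mitochondrial genome, the uncrossed groups lay on the side of F2-M18-G25, since F2-M18-G18 was nearer to F2-M25-G18 in 8 of the 55 called genes and F2-M25-G25 in 2. Between 46 and 57 genes were called lower when 1 library was left out, and 46 with equal sums.

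Of 24 tested, 8 were lower and 3 higher (median -0.08), beside 11.7% lower and 8.89% higher over all genes, and the strongest decreases were in genes of the flight muscle. TpnC4 (FBgn0033027, chromosome 2R from 5503437 to 5507866), its troponin C, had 2181, 2298, 2025 and 2055 in F2-M18-G25 and 3994, 3839 and 4845 in F2-M25-G18, so that the groups lay far apart beside their spread (log2 difference -0.98, SE 0.09, adjusted p = 6.96e-05). fln (flightin), a thick filament protein of flight muscle, had 6924, 6896, 5143 and 4904 against 11769, 10188 and 13723, with means of 5967 and 11893 and no overlap (adjusted p = 8.47e-04). The flight muscle actin Act88F differed by -0.59 and the myosin light chain Mlc1 by -0.49. The 3 genes called higher in F2-M18-G25 were the actins Act57B (0.37) and Act87E (0.38) and the troponin C gene TpnC73F (0.34). The large structural genes sls, bt and Mhc were not called (differences of 0.17, -0.08 and -0.29). None of the 3 increases was called without replicate D of F2-M25-G18, and with equal sums 6 genes were higher and 6 lower. Actin genes are near-identical in their coding parts, and since only uniquely aligned reads were counted their levels are uncertain.

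Ribosomal protein genes were lower to a small extent. Of 79 genes of the cytosolic ribosome, 29 were called lower and 0 higher, with a median of -0.23. RpL38 had 313, 329.7, 337 and 437 in F2-M18-G25 and 568, 615 and 849 in F2-M25-G18 (log2 difference -0.92, SE 0.14, adjusted p = 0.00130). The number called was 14 without replicate D of F2-M25-G18, 35 without replicate D of F2-M18-G25 and 16 with equal sums. Proteasome subunits, in contrast, centred on 0 (median 0.02, 2 of 46 higher and 0 lower), and the called ones were the testis isoforms Prosalpha4T2 (0.44) and Prosalpha6T (0.43). With equal sums 13 of them were called higher.

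**Figure D3:**
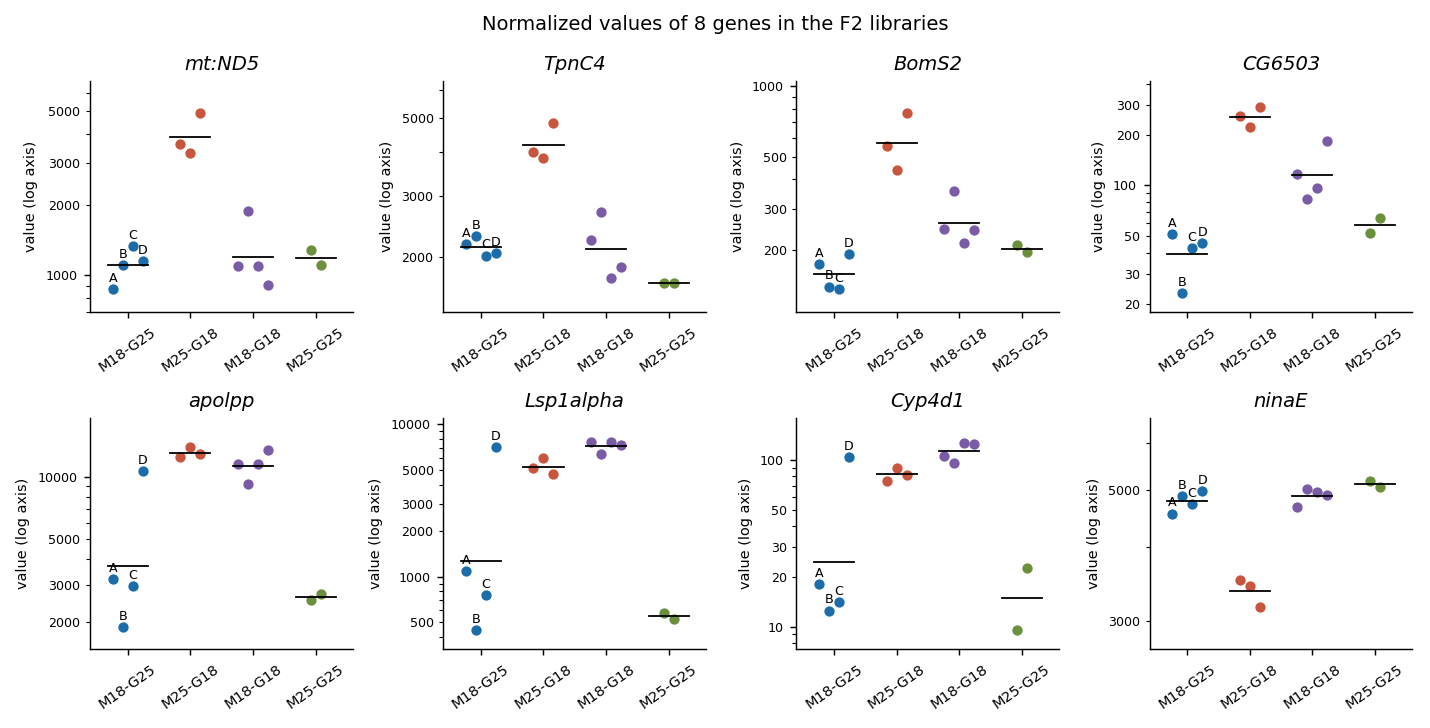
Normalized values on log axes for 8 genes in the crossed groups (M18-G25 blue, with replicate letters, and M25-G18 red) and the uncrossed groups (M18-G18 purple, M25-G25 green), 1 point per library, with lines at the means on the log scale. M25-G18 stands apart from the 3 other groups in mt:ND5, TpnC4 and ninaE, whereas in apolpp, Lsp1alpha and Cyp4d1 replicate D of M18-G25 lies near M25-G18 and M18-G18. Genes with calculated values have 2 points in M25-G25.

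Antimicrobial peptide genes were lower in F2-M18-G25 almost without exception. Of 14 tested, 13 were called lower, with a median of -1.36, and CecA1, a cecropin, differed by -0.42 (adjusted p = 0.130). The called genes comprised all 9 Bomanins tested, short secreted peptides induced through Toll, both Daisho peptides, which are also Toll targets, and both drosomycin genes tested. BomS6 (FBgn0040733, chromosome 2R from 18390353 to 18390629) had 133, 58.3, 77.9 and 91.9 in F2-M18-G25 and 358, 340.5 and 685 in F2-M25-G18, a 4.97-fold difference without overlap (log2 difference -2.31, SE 0.26, adjusted p = 2.17e-04). BomS2 had 174, 139.6, 136 and 192 against 552, 439 and 769.7, log2 difference -1.84, SE 0.17, adjusted p = 5.19e-05. Drs (drosomycin), an antifungal peptide, had 79.2, 70.8, 73.2 and 155 against 180.0, 231 and 179, log2 difference -1.11, SE 0.22, adjusted p = 0.00529. Dso2 (Daisho2) had 35.4, 20.7, 28.0 and 47.5 against 135, 85.3 and 181, log2 difference -1.95, SE 0.27, adjusted p = 7.90e-04. In each of these genes every F2-M25-G18 library was above every F2-M18-G25 library, replicate D included. The 24 genes of the list summed to 902 to 1444 in F2-M18-G25 and 2734 to 4080.0 in F2-M25-G18. F2-M18-G18 lay between them at 1826 to 2501, and F2-M25-G25 was at 1127 and 1289.5 in its replicates A and B. At least 11 of the genes were called when any library was left out. Several Bomanin genes are close copies of each other, so reads may have been lost or divided among them.

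Among the sensors and the pathway genes the differences were fewer. Of 9 peptidoglycan recognition protein genes, 3 were lower and 0 higher, at a list median of -0.56. The median depended on low genes, since with a filter of 25 or more in 4 libraries it was -0.17 (5 tested, 2 lower and 0 higher). PGRP-SC2, a secreted amidase that degrades peptidoglycan in the gut, had 14.7, 7.78, 13.7 and 6.37 in F2-M18-G25 and 42.7, 45.5 and 37.1 in F2-M25-G18 (log2 difference -1.85, SE 0.27, adjusted p = 0.00112). PGRP-SD had 26.8, 10.9, 23.5 and 55.0 against 57.6, 60.9 and 66.8, with replicate D closest to the other group (log2 difference -1.23, SE 0.35, adjusted p = 0.0274). PGRP-LB, another amidase, differed by -0.56. Without replicate D of F2-M25-G18, 1 of the 9 was called. Of 20 genes of IMD and Toll signalling, 4 were lower and 2 higher (median -0.13), beside 11.7% and 8.89% of all genes. The adaptor imd had 56.7, 60.7, 59.9 and 67.5 in F2-M18-G25 and 93.4, 83.4 and 97.3 in F2-M25-G18 (log2 difference -0.56, SE 0.13, adjusted p = 0.00926), SPE, the protease that activates the Toll ligand, differed by -0.53, and the serpin nec by -0.48, whereas Tab2, a partner of the kinase Tak1, was higher (0.53). With equal sums 2 of the 20 were lower and 4 higher.

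Several secreted enzymes of the gut were lower in F2-M18-G25, some of them among the strongest differences of all. Of 16 digestive proteases tested, 6 were lower and 0 higher (median -0.65). Of these 6, Jon99Ci, Jon25Biii and Jon74E were under 10 in every F2-M18-G25 library and passed the filter through F2-M25-G18 alone. With a filter of 25 or more in 4 libraries, 6 proteases were tested, 1 was lower and 0 higher, and the median was -0.16. betaTry, a trypsin, had 17.9, 9.48, 13.6 and 14.5 in F2-M18-G25 and 71.5, 144 and 55.0 in F2-M25-G18, without overlap (log2 difference -2.45, SE 0.29, adjusted p = 2.96e-04), and its neighbour alphaTry, a close copy that may share reads with it, had means of 466 and 614 (-0.39). Jon99Ci had 8.97, 6.10, 6.32 and 7.26 against 21.7, 39.2 and 22.8 (log2 difference -1.67, SE 0.27, adjusted p = 0.00183), at a few reads per library. The protease list was lower in 2 to 8 genes when 1 library was left out, and in none in a model with all 6 conditions. In replicate C of F2-M25-G25 betaTry stood at 1011 and Jon25Biii at 310.4, the highest values of these genes in any F2 library. Of 13 maltases and amylases, 8 were lower and 0 higher (median -0.49), all 8 of them maltases. Mal-A8 had 337, 329, 392 and 395 against 708, 512 and 661, without overlap (log2 difference -0.78, SE 0.11, adjusted p = 0.00116). The amylase genes Amy-p and Amy-d were not called (-0.14 and -0.36).

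Genes for the uptake of lipid and sterol in the gut were lower as well, 6 of 10 tested and 0 higher (median -0.66). With a filter of 25 or more in 4 libraries, 8 were tested, 4 were lower and 0 higher, and the median was -0.36. Npc2g, a sterol carrier of the Niemann-Pick type, had 108, 72.4, 79.5 and 189 in F2-M18-G25 and 252, 228 and 300.5 in F2-M25-G18, with replicate D the highest of its group (log2 difference -1.30, SE 0.25, adjusted p = 0.00420). mag (magro), a gastric lipase, had 9.99, 7.67, 17.4 and 17.8 against 28.5, 19.2 and 36.4 (log2 difference -1.01, SE 0.30, adjusted p = 0.0329). Without replicate D of F2-M25-G18 1 of 9 tested genes was called. The peritrophic matrix and mucin genes went the other way in 2 of 10 cases, Mur2B (0.82) and Mur18B (0.31), and neither was called without that library. Neither of the 2 digestive lysozymes tested was called (LysP -0.75, LysE 0.15). Among gut redox genes 3 of 8 were lower, Irc (immune-regulated catalase, -0.93), the catalase Cat (-0.47) and Duox (-0.30), which makes reactive oxygen species at the gut surface.

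The 12 largest decreases among genes without overlap between the groups included 9 that belong to no list. Sgp (FBgn0032055, chromosome 2L from 8519690 to 8521809) had 8.57, 2.50, 3.56 and 7.10 in F2-M18-G25 and 48.6, 131 and 134 in F2-M25-G18 (log2 difference -3.79, SE 0.37, adjusted p = 8.19e-05), and the uncrossed F2-M18-G18 ranged from 8.57 to 94.5. CG12374 (FBgn0033774, chromosome 2R from 12762113 to 12763825), a predicted carboxypeptidase, had 17.1, 2.32, 14.7 and 7.48 against 49.5, 137 and 87.7 (log2 difference -3.01, SE 0.45, adjusted p = 0.00124). CG6503 (FBgn0040606, chromosome 3R from 26424698 to 26425105) had the lowest adjusted p of these genes, with 51.4, 23.2, 42.7 and 45.7 against 258, 221 and 292 (log2 difference -2.64, SE 0.21, adjusted p = 3.54e-05). CG6295, a predicted lipase, and CG7542, a predicted serine protease, had means of 1.62 against 21.7 and 3.26 against 24.3. CG5107 had 11.1, 6.80, 20.3 and 8.72 against 79.9, 79.4 and 56.1 (log2 difference -2.50, SE 0.29, adjusted p = 2.36e-04), and FBgn0040001, an identifier with no symbol, had 54.3, 17.1, 22.4 and 44.1 against 154, 242 and 181 (log2 difference -2.53, SE 0.31, adjusted p = 3.65e-04). CG34212 (means 3.93 and 30.6) and meep (means 7.17 and 33.9) completed these genes. Acp54A1, an accessory gland peptide, was at or near 0 in F2-M18-G25 (0.0797, 0, 0 and 3.36) and at 10.9, 70.8 and 22.7 in F2-M25-G18, so its log2 difference depended on the value added before the logarithm and ranged from -4.94 to -2.03 over the alternatives. CG6295, CG7542 and CG34212 also rest on a few reads in F2-M18-G25. Sgp, Acp54A1, CG6295, CG7542 and CG34212 were under 10 in every F2-M18-G25 library, so the filter admitted them through F2-M25-G18 alone. Of these 12 genes, betaTry, CG12374, CG5107, CG6295, CG7542 and meep missed the threshold under 1 or 2 of the alternatives (adjusted p up to 0.143), and the others passed under each one that could test them.

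Genes of the larval fat body showed another pattern, in which replicate D did not lie with its group. Of the 6 genes for larval serum proteins and related fat body proteins that were tested, 4 were called lower with all libraries (median -1.76) and 6 without that replicate (median -2.47). When any of the 6 other libraries was left out 0 were called, as also without a variance trend or with a robust one, and the replicate block left 1. Lsp1alpha (FBgn0002562, chromosome X from 12490291 to 12492982), a serum storage protein, had 1086, 443, 752 and 7051 in F2-M18-G25 and 5127, 6045 and 4720.4 in F2-M25-G18. Replicates A to C were thus below, and replicate D above, every library of F2-M25-G18 (log2 difference -2.06, SE 0.63, adjusted p = 0.0365, and log2 difference -2.88 without replicate D). Fbp1, the receptor that takes these proteins up, had 7782, 3719, 6278 and 40989.8 against 35187, 37969.5 and 30679 (log2 difference -1.89, SE 0.55, adjusted p = 0.0290, and log2 difference -2.61 without replicate D), and Fbp2, an abundant larval fat body protein, 918, 418, 669.8 and 4941 against 4522, 5129 and 4216 (log2 difference -2.11, SE 0.57, adjusted p = 0.0206, and log2 difference -2.85 without replicate D). The sum of the list was 8994 to 19453 in replicates A to C, 99949 in replicate D and 68152 to 85359 in F2-M25-G18. Of the uncrossed libraries, F2-M18-G18 summed to 95802 to 114288, and F2-M25-G25 to 12740.3 and 12697 in its replicates A and B. The libraries of the cold-treated germline, in either microbiome, and replicate D were therefore on the upper level, and the other libraries of the control germline on the lower, with germline and microbiome exchanged under the other reading of the names. How far the amount of larval tissue moves with the other differences was not tested.

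Lipid transport and storage genes of the fat body partly shared this pattern. Of 12 tested, 8 were lower and 0 higher (median -0.48), and 7 or 8 were called when any library was left out. apolpp (FBgn0087002, chromosome 4 from 1060969 to 1077273), the precursor of the main lipid carrier of the haemolymph, had 3209, 1881, 2962 and 10636 in F2-M18-G25 and 12468, 13896 and 12806 in F2-M25-G18, with replicate D just below the other group (log2 difference -1.81, SE 0.39, adjusted p = 0.00789). Lsd-1, a perilipin on lipid droplets, had 203, 141, 191 and 333 against 436, 385 and 643 (log2 difference -1.20, SE 0.23, adjusted p = 0.00440), and Mtp, which loads lipid onto lipoproteins, differed by -1.01. FASN1, the fatty acid synthase, had 2532, 1812, 2065 and 2663 against 4113, 4164 and 4409.7, with replicate D the highest of its group and far below the other (log2 difference -0.91, SE 0.12, adjusted p = 5.43e-04). TotA, the only tested member of the Turandot stress genes, had 59.4, 25.2, 43.7 and 293 against 268, 602 and 281, and replicate D overlapped F2-M25-G18 (log2 difference -2.38, SE 0.58, adjusted p = 0.0132, and log2 difference -3.08 without replicate D). Hsp23, a small heat shock protein, had 533, 262, 419 and 1792 against 1623, 1749 and 1619, with replicate D above every library of F2-M25-G18 (log2 difference -1.54, SE 0.43, adjusted p = 0.0246). Of 17 heat shock genes, 2 were lower (Hsp23 and Hsp60A, -0.32) and 3 higher, among them DnaJ-1 (0.32) and Hsp60B (0.27). None of the 5 was called without replicate D of F2-M25-G18, without replicate A or B of F2-M18-G25, or without a variance trend. Of 3 genes linked to cold acclimation in flies, smp-30 (-0.88) and regucalcin (-0.74) were lower, and Fst was not called (0.20).

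Detoxification genes were lower in F2-M18-G25 or did not pass the test. Of 66 cytochrome P450 genes tested, 30 were lower and 0 higher (median -0.48), with 10 lower without replicate D of F2-M25-G18 and 31 without replicate D of F2-M18-G25. Cyp4e3 had 78.0, 74.7, 64.2 and 97.3 in F2-M18-G25 and 211, 162 and 199 in F2-M25-G18, without overlap (log2 difference -1.27, SE 0.14, adjusted p = 2.36e-04). Cyp4s3 had means of 158 and 361 (log2 difference -1.20, SE 0.18, adjusted p = 0.00130), and Cyp6g1, known for insecticide resistance, 406 and 608 (log2 difference -0.59, SE 0.10, adjusted p = 0.00241). In Cyp4d1 replicates A to C were at 18.0, 12.5 and 14.0 and replicate D at 104, against 75.2, 89.9 and 81.0 in F2-M25-G18 (log2 difference -1.66, and -2.33 without replicate D). Of 28 glutathione transferases, 7 were lower and 0 higher (median -0.30), led by GstD10 (-2.07, with replicate D at 31.9, beside 3.20 to 5.62 in the others, and a log2 difference of -2.69 without it), and 11 were lower without replicate D. GstE6 had 35.2, 38.6, 43.6 and 50.4 against 87.3, 82.2 and 96.4 (log2 difference -1.05, SE 0.15, adjusted p = 0.00111). F2-M18-G18 lay nearer to F2-M25-G18 in 19 of the 30 called P450 genes and 6 of the 7 transferases, and F2-M25-G25 in 7 and 1.

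Odorant binding proteins, many of which are carriers outside the antenna, were lower in 10 and higher in 1 of 27 genes (median -0.25). Obp99b, which is made in the fat body, had 1052, 367, 671 and 7092 in F2-M18-G25 and 4994, 6024 and 4789 in F2-M25-G18, with replicate D above that group (log2 difference -2.17, SE 0.67, adjusted p = 0.0374, and log2 difference -3.04 without replicate D). Obp99c had 555, 362, 404 and 982 against 1636, 1505 and 1865, without overlap (log2 difference -1.64, SE 0.25, adjusted p = 0.00130). The single increase was Obp44a (0.23). All 6 imaginal disc growth factors, chitinase-like secreted proteins, were lower, from -0.40 in Idgf3 to -1.23 in Idgf5, and F2-M18-G18 lay nearer to F2-M25-G18 in all 6, F2-M25-G25 in 0. Of the 19 other genes of chitin synthesis and turnover, 4 were lower and 1 higher.

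Of 34 Cpr family genes, which build the cuticle, 10 were lower and 2 higher (median -0.12), beside 11.7% and 8.89% of all genes. Cpr49Ae had means of 277 and 553 (log2 difference -0.99, SE 0.09, adjusted p = 3.89e-05), and Acp65Aa, a protein of the adult cuticle, had 82.2, 85.0, 39.5 and 52.5 in F2-M18-G25 and 188, 216 and 203 in F2-M25-G18, without overlap (log2 difference -1.68, SE 0.22, adjusted p = 5.43e-04). Cpr49Ag (0.53) and Cpr100A (0.33) were higher. Of 4 Tweedle genes tested, Twdlalpha was higher (0.52) and none lower. Of 19 genes of pigmentation and tanning, 6 were lower and 2 higher. Among them y (yellow), needed for black pigment and also present on the duplication of this line, had 8.25, 5.36, 0 and 2.54 against 11.6, 18.4 and 11.4, at a few reads (log2 difference -1.60, SE 0.48, adjusted p = 0.0335), and yellow-d2 had 47.0, 57.4, 49.0 and 41.5 against 88.6, 88.9 and 81.0 (log2 difference -0.80, SE 0.14, adjusted p = 0.00298). The filter admitted y through F2-M25-G18 alone.

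Genes called higher in F2-M18-G25 differed by less. Of the 38 gene lists, those of the eye and the testis held the most of them, 8 and 9 of the 971, so most increases lay outside both. Of 26 phototransduction genes, 8 were higher and 1 lower (median 0.23), where 8.89% of all genes were higher. ninaE (FBgn0002940, chromosome 3R from 19886255 to 19888206), the main rhodopsin, had 4554, 4877, 4728 and 4967 in F2-M18-G25 and 3513, 3440.4 and 3165 in F2-M25-G18, without overlap (log2 difference 0.50, SE 0.08, adjusted p = 0.00140). The ultraviolet opsin Rh3 had 438, 444, 458 and 472 against 389, 346 and 339 (log2 difference 0.34, SE 0.08, adjusted p = 0.0122), and the diacylglycerol kinase rdgA differed by 0.40. The gene that was lower, ninaD (-1.48), encodes a scavenger receptor for carotenoid uptake. F2-M25-G18 was again the group apart in ninaE, since F2-M18-G18 had 4669.9, 5014, 4951 and 4902 and F2-M25-G25 5166 and 5046. The number called higher was 3 without replicate D of F2-M25-G18, 10 without replicate D of F2-M18-G25 and 14 with equal sums.

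Of 44 testis genes, 9 were higher and 0 lower (median 0.19). Mst98Ca, a sperm tail protein, had 1966, 1878, 1925 and 1775 in F2-M18-G25 and 1484, 1423 and 1331 in F2-M25-G18, without overlap (log2 difference 0.42, SE 0.07, adjusted p = 0.00303), and loopin-1 differed by 0.32. Without replicate D of F2-M25-G18 the count was 4, and with equal sums 23. Of 62 seminal fluid genes, 9 were lower and 5 higher (median -0.05), shares near those of all genes (11.7% and 8.89%). Est-6, an esterase of the ejaculatory duct, had 127, 112, 127 and 208 against 421, 519 and 406, without overlap (log2 difference -1.66, SE 0.17, adjusted p = 1.11e-04), and msopa, a male-specific gene, 689.5, 586, 573 and 739.7 against 429, 497 and 329.7 (log2 difference 0.64, SE 0.13, adjusted p = 0.00587). With equal sums 10 of the 62 were higher and 6 lower.

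Most of the 12 genes with the largest increases and no overlap were uncharacterised. CG15040 (FBgn0030940, chromosome X from 18606610 to 18617589) had 60.8, 76.5, 78.1 and 89.0 in F2-M18-G25 and 28.0, 35.7 and 12.2 in F2-M25-G18, 3.07-fold higher (log2 difference 1.62, SE 0.27, adjusted p = 0.00215). CG9016 (FBgn0031751, chromosome 2L from 5922876 to 5923653) had 1527, 1373, 1278 and 1137 against 674, 552 and 473 (log2 difference 1.23, SE 0.12, adjusted p = 8.19e-05), and CG34220 (FBgn0085249, chromosome 2R from 10041065 to 10043507) 478, 249.8, 409 and 532 against 178, 248 and 77.8 (log2 difference 1.40, SE 0.32, adjusted p = 0.00947). CG13606 had 667, 584, 436 and 472 against 197, 309.6 and 262 (log2 difference 1.07, SE 0.16, adjusted p = 0.00117). H15, a T-box transcription factor, had 25.4, 24.9, 14.4 and 13.7 against 9.33, 9.31 and 6.64 (log2 difference 1.01, SE 0.28, adjusted p = 0.0238). CG32547, CG42331, CG9109, CG43450, CG4676, CG42326 and CG43123 made up the rest, with differences from 0.93 to 1.04 and means of 13.6 to 56.5 in F2-M18-G25. CG15040, CG9016, CG13606 and CG42326 passed the threshold under every alternative, while each of the other 8 missed it under 2 to 7 of them (adjusted p up to 0.176). H15 and CG9109 were under 10 in every F2-M25-G18 library, so the filter admitted them through F2-M18-G25 alone.

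Counts in the regulatory lists are to be read beside 20.6% of all genes called. Of 13 clock genes, cry (-0.51), tim (-0.36) and to (-1.25), a clock-regulated feeding gene, were lower and Clk (0.31) was higher. Of 14 genes of insulin signalling and the nutrient response, Thor, the translation inhibitor 4E-BP, was higher (822, 1094, 818 and 843 against 557, 515 and 674, log2 difference 0.62, SE 0.12, adjusted p = 0.00394), and the adipokinetic hormone receptor AkhR was lower (42.8, 41.1, 50.0 and 58.7 against 95.7, 82.5 and 129, log2 difference -1.05, SE 0.17, adjusted p = 0.00209). Of 16 ecdysone response genes, the nuclear receptors Hr4 (0.52) and Hr38 (0.51) and Eip63E (0.27) were higher, and ftz-f1 (-0.34) and the ecdysone-degrading Cyp18a1 (-0.84) were lower. Of 19 Polycomb and heterochromatin genes, Su(z)2 was higher (259, 259, 225 and 280.3 against 193, 188 and 157, log2 difference 0.51, SE 0.11, adjusted p = 0.00645). None of the 15 piRNA pathway genes, 6 histone genes or 5 dosage compensation genes tested was called, with medians of 0.07, -0.13 and 0.01. By chromosome, 17.9% of the genes were called on the X, 18.5% to 23.2% on the large autosome arms and 26.0% of 77 on chromosome 4, where 17 were lower and 3 higher. Of 13 genes tested on the Y, 0 were called.

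**Figure D4:**
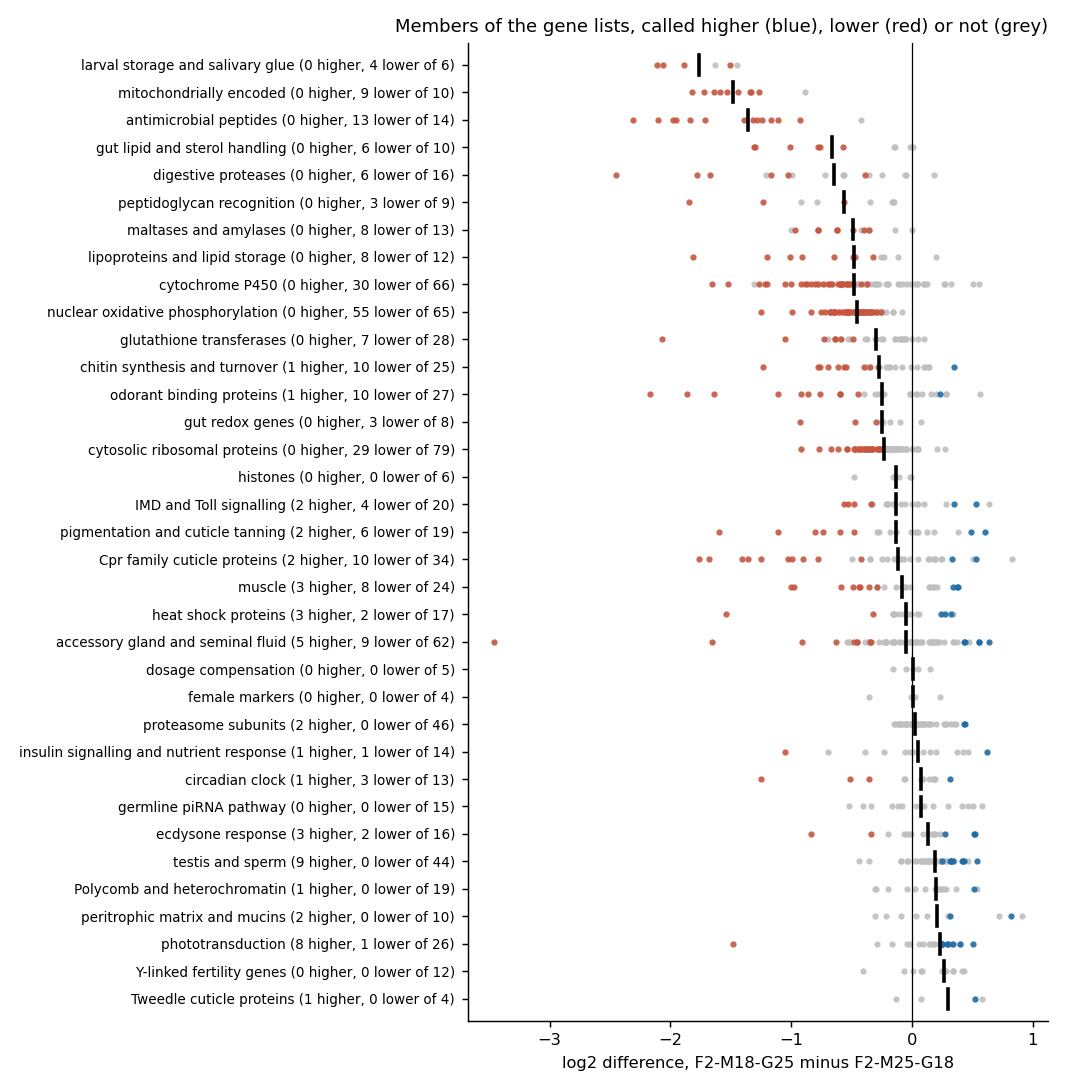
Log2 differences (x axis) of the tested members of 35 gene lists with at least 4 tested genes, 1 point per gene, blue where called higher, red where called lower in F2-M18-G25 and grey where not called, with a black bar at the list median. The lists are ordered by median, from larval storage proteins and mitochondrial genes at the top to Tweedle cuticle proteins at the bottom.

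The uncrossed F2 groups, whose libraries took no part in the calls, lay between the crossed groups at different places. On a scale with 0 at the F2-M18-G25 mean and 1 at the F2-M25-G18 mean, F2-M18-G18 had a median position of 0.47 over the called genes (0.41 in those called higher and 0.52 in those called lower) and of 0.47 over all genes. F2-M25-G25 had 0.12 over the called genes and 0.21 over all. In F2-M25-G25, replicates C and D, 7150 of the 12024 genes hold values that differ by a whole number from the average of the other replicates, A and B. These values, called calculated values here, were left out, so that F2-M25-G25 rests on 2 libraries in such genes. In called genes without calculated values, which are mostly low, its median was 0.50. Over all called genes the single libraries of F2-M18-G18 had medians of 0.38 to 0.59, and F2-M25-G25 had 0.06 and 0.07 in its replicates A and B. Among the 242 genes lower by more than 2-fold, F2-M18-G18 was nearer to F2-M25-G18 (0.71), with the shared germline, and F2-M25-G25 was nearer to F2-M18-G25 (0.17). Under the other reading of the names this sharing would be that of the microbiome.

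**Figure D5:**
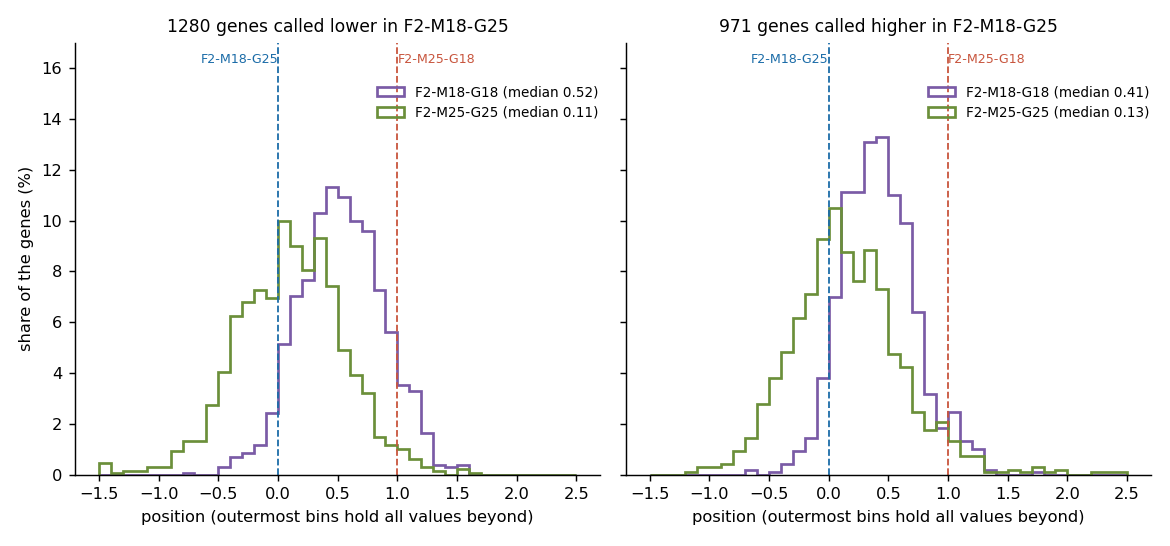
Share of the genes called lower (left) and higher (right) in F2-M18-G25, in bins of the position of the uncrossed groups F2-M18-G18 (purple) and F2-M25-G25 (green) between the crossed groups, whose means stand at 0 and 1 (dashed lines). F2-M18-G18 has medians of 0.52 and 0.41, and F2-M25-G25 of 0.11 and 0.13.

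Counts for single gene groups were as follows. F2-M18-G18 was nearer to F2-M25-G18 in 4 of the 4 called larval storage genes, 6 of 8 called lipid transport and storage genes and 6 of 6 called genes of gut lipid and sterol handling, and F2-M25-G25 was so in 0, 1 and 1. In the 9 mitochondrially encoded genes and 8 muscle genes that were called lower, neither uncrossed group was nearer to F2-M25-G18 in any gene. In the 13 called antimicrobial peptide genes F2-M18-G18 was nearer in 7 and F2-M25-G25 in 4, and in the 6 called proteases in 5 and 6. The proteases betaTry, Jon25Biii, Jon99Ci and Jon74E hold no calculated values, so their F2-M25-G25 means include replicates C and D. Replicate C of F2-M25-G25 was the highest of its group in each, as in betaTry (28.2, 52.2, 1011 and 52.1 in replicates A to D). Replicate D of F2-M18-G18 was likewise the highest of its group in each, as in betaTry (28.2, 18.5, 15.6 and 190.1), so the protease counts lean on single libraries. For F2-M25-G25 the 4 called larval storage genes rest on replicates A and B alone, so these counts are not alike.

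Directions between the other groups were set beside those of the crossed groups, with which they share no library. Of the 1280 genes lower in F2-M18-G25 than in F2-M25-G18, 1007 (78.7%) were higher in F2-M18-G18 than in F2-M25-G25, beside 49.1% of all genes, and of the 971 genes higher in F2-M18-G25, 668 (68.8%) were lower there, beside 50.9%. In most genes these directions rest on 2 libraries of F2-M25-G25, the calculated values being left out. Among called genes without calculated values, which are mostly low, 123 of 226 (54.4%) and 47 of 111 (42.3%) had these directions. Between the F1 parents the tendency was weaker, with 843 (65.9%) of the genes lower in F2-M18-G25 above 0 in cold-treated minus control flies, beside 51.7% of all genes, and 525 (54.1%) of the genes higher in F2-M18-G25 below 0, beside 48.3%. As examples, fln differed by 1.31 in F1-18 minus F1-25 and Act88F by 1.04, so both were higher in cold-treated F1 flies and in F2-M25-G18. F2-M25-G18 is an F2 group of the cold-treated germline, or of their microbiome under the other reading of the names. F2-M18-G18, which has both from cold-treated flies, lay nearer to F2-M18-G25 in both genes, at positions 0.10 and 0.26. CG12374 (-3.68), Jon99Ci (-3.87), Est-6 (-1.85) and tim (-1.31) were lower in cold-treated F1 flies and higher in F2-M25-G18. These F1 values and examples, chosen after they were seen, are a description with no test.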

How the data were processed

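Whole males were measured by strand-specific RNA-seq of ribosome-depleted total RNA. Per the methods of the study, reads were trimmed with Trimmomatic 0.32, aligned with STAR 2.4.0f1 to Release 6 of the *Drosophila* genome and counted per gene with HTSeq 0.6.1, uniquely aligned reads only, so near-identical copies (Bomanins, Jonah proteases, trypsins, maltases, actins, serum proteins) are uncertain. The deposited values are a signal, counts that the authors scaled by TMM factors in edgeR, and they are not whole numbers, so no count model was run. Of the 12024 gene identifiers, 11888 had a symbol and a position in the annotation.

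In F2-M25-G25 replicates C and D, values that differ by a whole number (tolerance 0.0001) from the average of A and B in the same gene were treated as missing. None enters the comparison of the crossed groups.

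Genes that reached 10 in 3 or more of the 7 libraries were compared as log2(value + 2) with limma 3.58.1 in R 4.3.3 (2 groups, variance trend, 5 residual degrees of freedom, two-sided, Benjamini-Hochberg adjustment over all 10921 genes). Every adjusted p is from this fit unless another setting is named, and folds on this scale understate the change of low genes. Replicates are stated to be biological. Figures were drawn with matplotlib 3.10.9.

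The genes followed in the text are the 12 largest increases and the 12 largest decreases among called genes whose groups do not overlap, and up to 4 called genes of each of 38 lists. Other members are examples chosen after their values were seen. The comparison and the lists were chosen with earlier results of these data known. Alternatives were other samples in the model, a replicate block, other pseudocounts, filters, scalings and variance models, and leaving out each library.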

Additional observations from a re-analysis of the deposited data

Results flagged for a closer look

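Among the 4 libraries of F2-M18-G25, single libraries stood far from the rest of the group in 6 of the 130 genes and 1 of the 38 list sums examined, by Dixon's test. Replicate D was the one apart in Acp54A1 (3.36, gap over range 0.960), smp-30 (392, 0.866), Cyp4d1 (104, 0.840) and Mst84Dc (447, 0.881). Replicate C was apart in Twdlalpha (126, 0.860). Replicate B was apart in Thor (1094, 0.894) and in the sum of the insulin signalling and nutrient response list (4379, 0.871), of which Thor is a member. Chance flags about 1 in 20 groups. Over all genes tested 547 (5.01%) had such a library, which was replicate D in 195 and another replicate in 116 to 118 each.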

How the results depend on the processing

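No called gene changed direction when 1 library was left out. Of the 2535 values of the 130 named genes under the alternatives, 2171 stayed past the threshold and 364 kept their direction without passing it. The settings that lost the most of the 130 were leaving out replicate D of F2-M25-G18 (45), no variance trend (42) and a model of all 6 conditions (36). Against 2251 called genes (971 higher, 1280 lower), that model of 6 conditions gave 1403 (553 and 850), limma without a variance trend 1214 (460 and 754), and equal sums 3168, of which 2348 were higher and 820 lower. Leaving out 1 library gave 971 to 2623 calls, 392 to 1143 higher and 579 to 1480 lower, fewest without replicate D of F2-M25-G18 and most without replicate D of F2-M18-G25. The median position of F2-M25-G25 was 0.07 with replicates A and B alone, 0.50 in genes without calculated values and 0.09 to 0.20 when 1 library was left out, and that of F2-M18-G18 was then 0.40 to 0.54.

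Whether the shared replicate letters pair the samples cannot be settled from 3 same-letter pairs. Deviations from the group means correlated at 0.006 to 0.040 within the 3 letters and at -0.121 to 0.093 across them. With the replicate block, on the 6 libraries of letters A, B and D, 1633 genes were called (648 higher, 985 lower), and the same libraries without the block, an alternative added after seeing the data, gave 1313 (504 and 809).

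With 3 and 4 libraries, differences in genes of a few reads were often not detectable.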
